A study of Mus musculus with 6 samples.

Results

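The genes described here are 48 genes of the cell division machinery, comprising cyclins and their kinases, kinase inhibitors, DNA replication factors and mitotic regulators. They were chosen by gene symbol from a fixed list of names and not by a rule on their measured values, though earlier results of these data were known. All 48 were found among the 55416 genes of the count table. They were divided by role into 9 genes of the G1 phase and its exit, 4 inhibitors, 14 replication genes and 21 mitosis genes. RNA-Seq was performed on coronary endothelial cells (ECs) of mouse hearts at E15.5, with 3 libraries per genotype. ControlΔEC embryos were Pdgfb(CreERT2/+); Wt1(+/+); R26(mTmG/+), and Wt1KOΔEC embryos were Pdgfb(CreERT2/+); Wt1(loxP/loxP); R26(mTmG/+). Embryos of both genotypes therefore carried the Cre driver and the reporter, and both were exposed to tamoxifen (75 mg/kg, to the mother) between E11.5 and E13.5. The Cre is inducible and driven by *Pdgfb*, and cells that had recombined the reporter were sorted by their mGFP, so the libraries were selected for cells with an active Cre. Because RNA was taken in bulk, fewer cycling cells and less RNA of a gene per cycling cell cannot be told apart.

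In the mammalian cell cycle, D-type cyclins bind the kinases CDK4 and CDK6 and start the phosphorylation of the retinoblastoma protein, which releases E2F transcription factors. Cyclin E with CDK2 then carries the cell into S phase, where the MCM helicase, loaded with the help of CDC6 and CDT1, opens the replication forks. Cyclin A and cyclin B with CDK1, together with the Polo-like and Aurora kinases, drive mitosis, which ends when the anaphase-promoting complex destroys cyclin B. The coronary plexus at this stage is growing, so ECs in cycle are a normal part of it.

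*Wt1*, the deleted gene, was measured at 145, 110 and 149 CPM, counts scaled to a common library size, in ControlΔEC and at 14.0, 18.4 and 21.3 CPM in Wt1KOΔEC. The scaling was TMM, which assumes that most genes do not differ. *Wt1* fell in Wt1KOΔEC with a log2 fold change of -2.91 ± 0.22 (SE) and an adjusted p = 0.00319 by edgeR's quasi-likelihood test. The libraries held 26037324 to 44779020 counts. The ribosomal RNA *Rn18s* took 13.2 to 15.3% of the counts in ControlΔEC and 21.1 to 26.5% in Wt1KOΔEC, and mitochondrially encoded genes took 5.21 to 6.61% and 1.68 to 4.57%. Neither share overlapped between genotypes. Leaving out both left 9 members higher and 2 lower at an unadjusted p under 0.05, as with them.

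*Ccnd2*, a D-type cyclin, *Cdk2*, the kinase partner of cyclin E, and *Cdt1*, a licensing factor, were measured higher in every Wt1KOΔEC library than in any ControlΔEC library, with log2 fold changes of 0.77, 0.61 and 0.84. *Rb1*, which encodes the retinoblastoma protein, was measured lower in every Wt1KOΔEC library, with a log2 fold change of -0.88. All 48 members passed the filter on low counts. None passed edgeR's threshold for differentially expressed genes (DEGs), which is an adjusted p under 0.05 with an absolute log2 fold change above 0.58. Of all 16296 genes tested, 12 passed it, or 0.0736%. DESeq2, the tool named in the study's methods, called 3 members (*Ccnd2* and *Cdt1* higher, *Rb1* lower) under the same limits, which is 6.25% of the members. It called 4.83% of the 15886 genes to which it gave an adjusted p. Among the 12946 genes tested with a mean of at least 1 CPM, as all members have, it called 5.25%. With limma-voom no member was called.

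Without adjustment, edgeR gave p under 0.05 for 9 members that were higher in Wt1KOΔEC and for 2 that were lower. The 9 are *Ccnd2*, *Cdk4*, *Ccne1*, *Cdk2*, *Cdt1*, *Plk1*, *Aurka*, *Tpx2* and *Ube2c*, which is 18.8% of the members, beside 5.96% of all genes tested. The 2 are *Rb1* and *Mki67*, 4.17% of the members, beside 7.12% of all genes tested. The 9 became 8, 5 and 4 without ControlΔEC replicate 1, 2 and 3, and 3, 5 and 5 without Wt1KOΔEC replicate 1, 2 and 3. The 2 became 3, 3 and 2 without these ControlΔEC libraries, and 1 without any 1 of the Wt1KOΔEC libraries. The lowest level among the Wt1KOΔEC libraries was above the highest among the ControlΔEC libraries for 13 members, or 27.1%, beside 10.3% of all genes tested. The reverse held for 4 members, or 8.33%, beside 8.97% of all genes tested. Among the 12946 genes tested with a mean of at least 1 CPM, as all members have, 9.79% were lower without overlap.

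**Figure D1:**
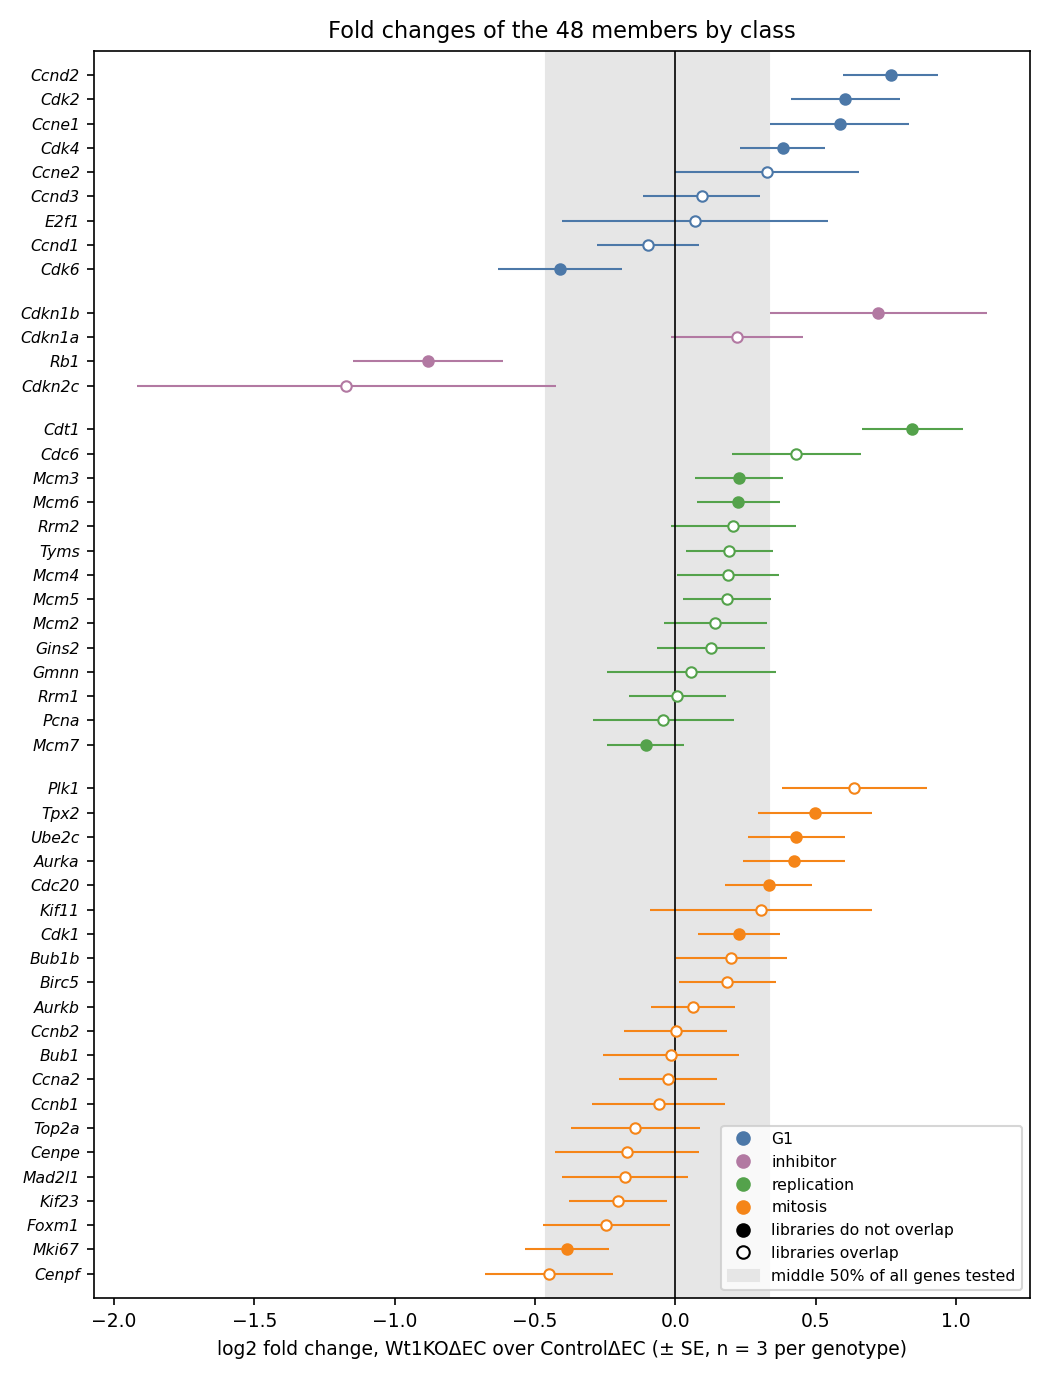
Log2 fold change of each member in Wt1KOΔEC over ControlΔEC with its SE, grouped by class and ordered by size, from the edgeR fit with 3 libraries per genotype. Filled points mark members whose libraries do not overlap between genotypes (13 higher, 4 lower), and the grey band holds the middle 50% of all genes tested, from -0.46 to 0.33.

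The median log2 fold change was 0.33 over the 9 G1 genes, -0.33 over the 4 inhibitors, 0.19 over the 14 replication genes and 0.00069 over the 21 mitosis genes. The median over all genes tested was -0.03. With a library left out, the medians ran from 0.07 (without Wt1KOΔEC replicate 3) to 0.41 for the G1 genes, from -0.46 (without ControlΔEC replicate 2) to -0.18 (without ControlΔEC replicate 1) for the inhibitors, from 0.12 (without ControlΔEC replicate 2) to 0.25 for the replication genes, and from -0.12 (without ControlΔEC replicate 2) to 0.15 (without ControlΔEC replicate 3) for the mitosis genes. With scaling by library size only, which put the median of all genes at -0.18, the mitosis median was -0.14 and thus close to that of all genes. Of the replication genes, 12 were above zero and 2 below, with small values in most, whereas the mitosis genes were divided into 11 above and 10 below.

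Promoters of G1, replication and mitosis members are shown because these classes are known to be controlled through different elements. E2F sites are typical of G1/S genes, while the cell cycle homology region (CHR) and CCAAT boxes are typical of G2/M genes. RefSeq promoter windows on GRCm38.p6, from 250 bases before to 30 bases after the annotated start, were matched by symbol to 37 of the 48 members. *Ccnd1*, *Ccnd2*, *Ccne2*, *Rb1*, *Gmnn*, *Mcm4*, *Gins2*, *Ccna2*, *Foxm1*, *Aurkb* and *Tpx2* had no entry. The following windows belong to the 5 members with the smallest p among those matched, read 5′ to 3′ on the strand of the gene. Capitals mark the CHR, searched as TTTGAA, the CCAAT box, searched as its own name spells it, and E2F-type letters, searched in the form TTCCCGC and in the form TTGGCGC, on both strands and with overlaps between them allowed.
Cdt1, chr8:122567765-122568044, plus strand: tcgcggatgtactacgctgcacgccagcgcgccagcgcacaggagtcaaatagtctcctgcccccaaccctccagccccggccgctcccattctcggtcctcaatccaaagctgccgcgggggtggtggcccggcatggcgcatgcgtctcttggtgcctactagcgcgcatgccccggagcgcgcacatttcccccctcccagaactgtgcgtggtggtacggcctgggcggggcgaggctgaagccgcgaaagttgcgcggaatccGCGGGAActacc
Cdk2, chr10:128705022-128705301, minus strand: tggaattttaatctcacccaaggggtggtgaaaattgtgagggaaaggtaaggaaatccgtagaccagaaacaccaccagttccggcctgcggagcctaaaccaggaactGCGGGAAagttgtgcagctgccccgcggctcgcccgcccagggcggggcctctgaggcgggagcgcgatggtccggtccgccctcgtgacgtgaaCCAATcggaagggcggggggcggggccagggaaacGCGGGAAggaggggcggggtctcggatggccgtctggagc
Mki67, chr7:135716350-135716629, minus strand: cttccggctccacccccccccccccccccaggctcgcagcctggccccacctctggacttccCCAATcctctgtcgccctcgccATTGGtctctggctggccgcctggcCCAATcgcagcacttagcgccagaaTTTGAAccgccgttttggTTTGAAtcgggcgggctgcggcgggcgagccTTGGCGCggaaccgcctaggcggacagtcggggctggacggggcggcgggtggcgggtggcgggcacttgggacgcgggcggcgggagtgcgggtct
Cdk4, chr10:127063285-127063564, plus strand: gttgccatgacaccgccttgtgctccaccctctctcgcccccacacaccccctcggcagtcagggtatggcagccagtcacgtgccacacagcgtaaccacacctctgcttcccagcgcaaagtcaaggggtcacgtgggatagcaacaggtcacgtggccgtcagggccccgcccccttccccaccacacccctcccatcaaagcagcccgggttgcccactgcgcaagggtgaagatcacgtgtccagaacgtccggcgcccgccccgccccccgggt
Ube2c, chr2:164769679-164769958, plus strand: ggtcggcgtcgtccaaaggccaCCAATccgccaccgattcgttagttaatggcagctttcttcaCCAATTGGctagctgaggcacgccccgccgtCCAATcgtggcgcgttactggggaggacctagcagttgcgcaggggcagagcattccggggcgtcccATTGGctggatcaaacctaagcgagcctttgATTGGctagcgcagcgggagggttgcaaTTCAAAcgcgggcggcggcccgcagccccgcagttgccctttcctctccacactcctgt

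The CHR letters were present in 9 of 17 mitosis promoters (52.9%), in 1 of 11 replication promoters and in none of the 6 G1 promoters, beside 19.5% of the 27025 genes in the RefSeq table. CCAAT was present in 15 of 17 mitosis promoters (88.2%), 8 of 11 replication promoters (72.7%) and 2 of 6 G1 promoters (33.3%), beside 39.7% of all genes. TTCCCGC was present in 5 of 11 replication promoters (45.5%), in 1 of 6 G1 promoters and in none of the mitosis promoters, beside 4.93% of all genes. TTGGCGC was present in 3 of 11 replication promoters, in 3 of 17 mitosis promoters and in none of the G1 promoters, beside 2.63%. Both *Mki67*, lower in Wt1KOΔEC, and *Ube2c*, higher, hold CHR and CCAAT letters. Letters of the EGR/WT1 type (GCGTGGG or GCGGGGGCG) were each found in few member promoters. GCGTGGG was present in 2 of 37 (5.41%) and in 5.44% of all genes, and GCGGGGGCG in 1 of 37 (2.7%) and in 3.23% of all genes. GCGTGGG and GCGGGGGCG are GC-rich and can overlap in 1 site. A match describes letters in a window and says nothing of binding.

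Of the D-type cyclins, which couple growth signals to the cycle, *Ccnd2* was higher in Wt1KOΔEC. It was measured at 129, 183 and 160 CPM in ControlΔEC and at 266, 284 and 254 CPM in Wt1KOΔEC. Every Wt1KOΔEC library lay above every ControlΔEC library. The log2 fold change was 0.77 ± 0.17 (SE), a 1.70-fold difference, with an adjusted p = 0.149 by edgeR and an adjusted p = 0.00110 by DESeq2. *Ccnd1* had 226, 223 and 231 CPM in ControlΔEC and 260, 210 and 167 CPM in Wt1KOΔEC, and *Ccnd3* had 298, 423 and 240 against 316, 357 and 352 CPM. Both of these overlapped between genotypes.

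Within a library the makeup of the D-type cyclins can be read without any scaling between libraries. Per exonic length, *Ccnd2* made up 14.8, 17.4 and 18.6% of the D-type cyclin counts in ControlΔEC and 24.2, 26.8 and 27.0% in Wt1KOΔEC. By this measure *Ccnd1* had the largest share in every library but Wt1KOΔEC replicate 3, where *Ccnd3* held 38.1% and *Ccnd1* 34.9%. Without division by length, *Ccnd3* had more counts than *Ccnd1* in every library. Their order thus depends on the exonic length used, the union of all annotated isoforms, which is 4.78 kb for *Ccnd1* and 9.24 kb for *Ccnd3*. There were 0.696 ± 0.125 (SD, n = 3) counts of *Ccnd2* for each count of *Ccnd1* in ControlΔEC and 1.3 ± 0.255 (SD, n = 3) in Wt1KOΔEC. This ratio was chosen after the levels of both genes were seen. Of the exonic length of *Ccnd1*, 48.4% is shared with *LTO1* on the opposite strand, and SMART-seq2 libraries do not keep the strand, so counts of this pair are uncertain.

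**Figure D2:**
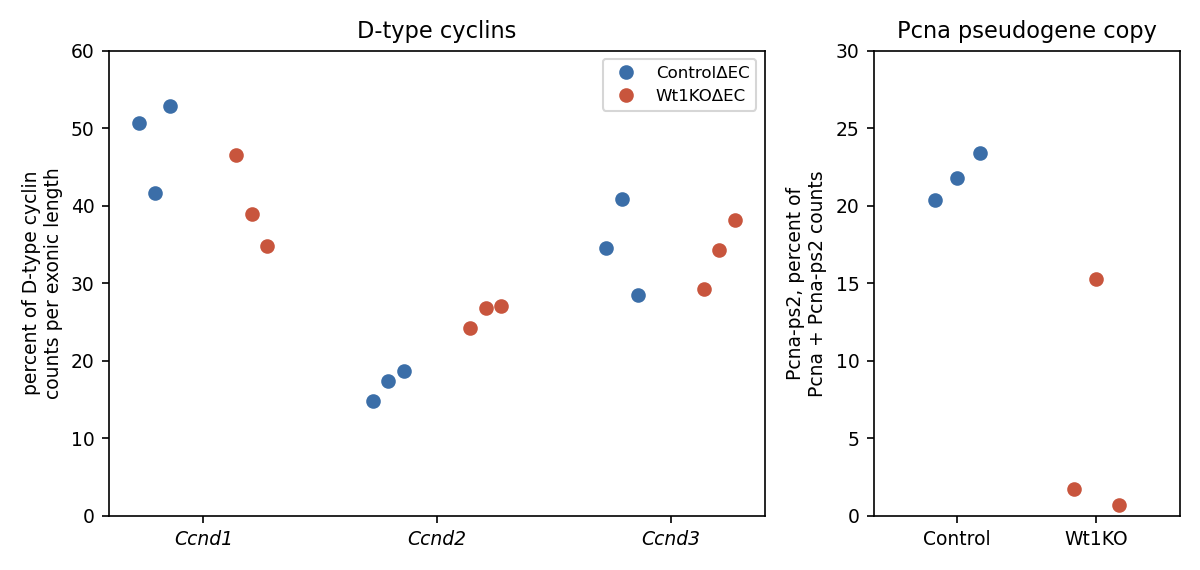
Left, the share of each D-type cyclin in the D-type cyclin counts per exonic length of a library, in percent, and right, the share of *Pcna-ps2* in the counts of *Pcna* and *Pcna-ps2* together, in percent, with 1 point per library. The *Ccnd2* share is 14.8 to 18.6% in ControlΔEC and 24.2 to 27.0% in Wt1KOΔEC, and the *Pcna-ps2* share is 20.4 to 23.4% and 0.662 to 15.3%.

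*Cdk4* and *Cdk6*, the partners of the D-type cyclins, differed in opposite directions. *Cdk4* had 351, 391 and 306 CPM in ControlΔEC and 480, 434 and 450 CPM in Wt1KOΔEC, without overlap, with a log2 fold change of 0.38 ± 0.15 (SE) and an adjusted p = 0.330 by edgeR. *Cdk6* had 35.4, 50.7 and 36.04 CPM in ControlΔEC and 34.0, 31.3 and 26.6 CPM in Wt1KOΔEC, all below the controls, and did not reach an unadjusted p under 0.05. The ratio of *Cdk4* to *Cdk6* counts was 8.70 ± 1.12 (SD, n = 3) in ControlΔEC and 15 ± 1.71 (SD, n = 3) in Wt1KOΔEC. It was chosen after both differences were seen and restates them. Per kb of exonic length, *Cdk4* was the more abundant of the pair, at 102 CPM against 2.82 CPM in ControlΔEC. *Cdk4* shares 18.8% of its exonic length with *Tspan31* on the opposite strand.

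The E-type cyclins and their kinase CDK2 act at the entry into S phase. *Cdk2* was measured at 81.4, 67.8 and 110 CPM in ControlΔEC and at 126, 135 and 134 CPM in Wt1KOΔEC. The Wt1KOΔEC libraries lay close together and all above the controls, with a log2 fold change of 0.61 ± 0.19 (SE) and an adjusted p = 0.254 by edgeR. *Ccne1* had 17.6, 15.7 and 12.8 CPM in ControlΔEC and 27.7, 21.4 and 20.1 CPM in Wt1KOΔEC. Its libraries did not overlap either, and its log2 fold change was 0.59 ± 0.25 (SE) with an adjusted p = 0.362 by edgeR. The other E-type cyclin, *Ccne2*, ranged from 14.96 to 29.6 CPM in ControlΔEC and from 20.4 to 38.5 CPM in Wt1KOΔEC, and *E2f1* from 3.50 to 10.8 and from 5.93 to 10.1 CPM. The intervals around these last differences were wide, with a 95% confidence interval of the log2 fold change of -0.41 to 1.07 for *Ccne2* and -1.001 to 1.14 for *E2f1*. *Ccne2* shares 15.2% of its exonic length with *Ints8* on the opposite strand.

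Of the inhibitors, *Rb1* was lower in Wt1KOΔEC. *Rb1* encodes the retinoblastoma protein, which holds E2F factors inactive until it is phosphorylated. It was measured at 22.3, 24.7 and 30.9 CPM in ControlΔEC and at 12.0, 12.2 and 18.1 CPM in Wt1KOΔEC. All Wt1KOΔEC libraries were below the lowest control, with a log2 fold change of -0.88 ± 0.27 (SE), an adjusted p = 0.240 by edgeR and an adjusted p = 0.0390 by DESeq2. *Rb1* shares 4.05% of its exonic length with *Rcbtb2* and 3.38% with *Lpar6* on the opposite strand. Both of these had more counts than *Rb1* in every library. There were 3.32 ± 0.501 (SD, n = 3) counts of *Cdk2* per count of *Rb1* in ControlΔEC and 9.64 ± 1.99 (SD, n = 3) in Wt1KOΔEC. This ratio was chosen after the differences of both genes were seen, and it restates them.

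The inhibitors that bind the kinases did not share a direction. *Cdkn1b* (p27) was low in all libraries, at 4.90, 4.24 and 5.41 CPM in ControlΔEC and 8.88, 6.26 and 8.87 CPM in Wt1KOΔEC, higher in every Wt1KOΔEC library but with an adjusted p = 0.482 by edgeR. *Cdkn2c* (p18), an inhibitor of CDK4 and CDK6, had the largest difference of any member and also the widest spread. It was measured at 8.25, 6.06 and 1.39 CPM in ControlΔEC and at 2.51, 3.26 and 1.19 CPM in Wt1KOΔEC. With ControlΔEC replicate 3 as low as the Wt1KOΔEC libraries, its log2 fold change was -1.17 ± 0.75 (SE) with an adjusted p = 0.578 by edgeR. *Cdkn1a* (p21), a p53 target, was by far the most abundant of the 4 inhibitor members per exonic length. It had 34.5 CPM per kb in ControlΔEC and 40.1 CPM per kb in Wt1KOΔEC, and its libraries overlapped. *Cdkn1c* (p57), which is not a member, had 79.9 CPM per kb in ControlΔEC and 37.85 CPM per kb in Wt1KOΔEC. Its ControlΔEC libraries spread widely, at 181, 309 and 26.95 CPM, and overlapped with Wt1KOΔEC.

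**Figure D3:**
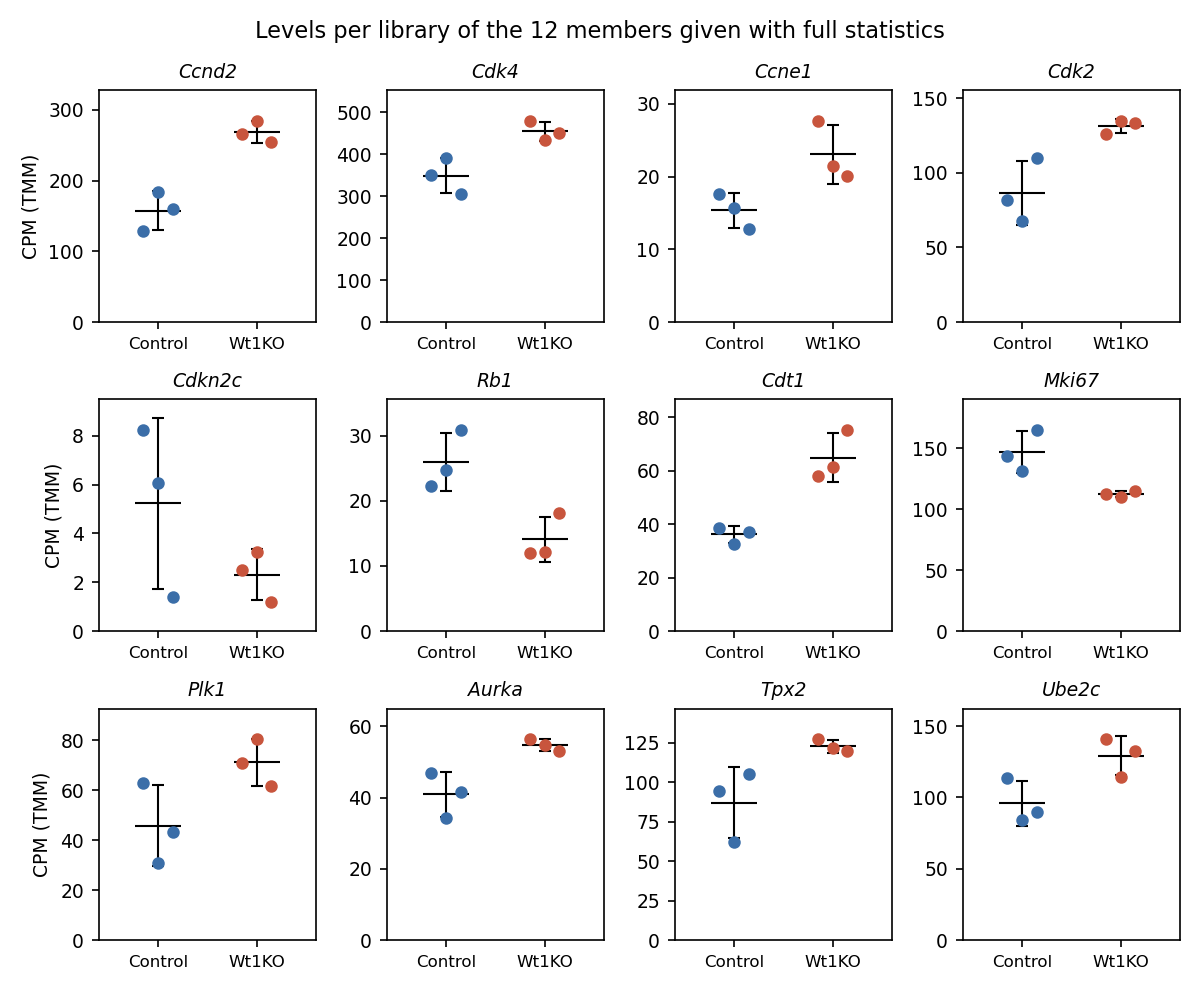
CPM in each library of the 12 members described with full statistics, with axes that start at 0, points for libraries, and bars for the mean ± SD of 3 libraries. The libraries overlap between genotypes for *Cdkn2c* and *Plk1* and do not overlap for the other 10 genes.

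Replication licensing is the loading of the MCM helicase onto origins by CDC6 and CDT1, which geminin (*Gmnn*) opposes. *Cdt1* was measured at 38.6, 32.7 and 37.2 CPM in ControlΔEC and at 58.0, 61.5 and 75.4 CPM in Wt1KOΔEC. The genotypes were well apart, the log2 fold change was 0.84 ± 0.18 (SE), a 1.79-fold difference, and the adjusted p = 0.140 by edgeR was the smallest among the members, with an adjusted p = 0.000886 by DESeq2. *Cdc6* had 30.3, 38.9 and 23.5 CPM in ControlΔEC and 44.0, 43.9 and 37.0 CPM in Wt1KOΔEC, with 1 control above the lowest Wt1KOΔEC library. *Gmnn* ranged from 12.5 to 25.1 CPM in ControlΔEC and from 16.3 to 22.4 CPM in Wt1KOΔEC. The ratio of *Cdt1* to *Gmnn* counts overlapped between genotypes, at 3.10, 1.301 and 2.12 in ControlΔEC and 3.11, 2.75 and 4.61 in Wt1KOΔEC.

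The 6 subunits of the MCM helicase form a ring with equal parts of each. Their log2 fold changes ran from -0.11 for *Mcm7* to 0.23 for *Mcm3*. *Mcm3* had 235, 186 and 233 CPM in ControlΔEC and 238, 252 and 275 CPM in Wt1KOΔEC, and *Mcm6* had 224, 214 and 263 against 264, 284 and 271 CPM, both without overlap but by narrow margins. *Mcm7* had 131, 130 and 138 CPM in ControlΔEC and 126, 121 and 124 CPM in Wt1KOΔEC, also without overlap and in the other direction. *Mcm2*, *Mcm4* and *Mcm5* overlapped, with means of 151, 121 and 161 CPM in ControlΔEC and 167, 137 and 183 CPM in Wt1KOΔEC. All 6 had an unadjusted p of 0.05 or more. *Gins2*, a subunit of the GINS complex that completes the active helicase, had means of 31.1 and 33.9 CPM, but 67.3% of its exonic length is shared with *Gse1* on the opposite strand.

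Ribonucleotide reductase (*Rrm1*, *Rrm2*) and thymidylate synthase (*Tyms*) supply the deoxynucleotides. *Rrm1* had means of 187 and 188 CPM in ControlΔEC and Wt1KOΔEC, with a 95% confidence interval of the log2 fold change of -0.39 to 0.40. *Rrm2* had means of 105 and 121 CPM and *Tyms* 63.9 and 73.1 CPM, and both overlapped.

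*Pcna*, the sliding clamp of the replication fork, can share reads with a processed pseudogene, and its level is uncertain for that reason. *Pcna* itself had 216, 110 and 163 CPM in ControlΔEC and 156, 129 and 190 CPM in Wt1KOΔEC. The pseudogene *Pcna-ps2* was listed at 55.4, 30.6 and 49.9 CPM in ControlΔEC and at 2.69, 23.3 and 1.27 CPM in Wt1KOΔEC. It thus took 20.4, 21.8 and 23.4% of the counts of the pair in ControlΔEC, but 1.69, 15.3 and 0.662% in Wt1KOΔEC, so that 1 Wt1KOΔEC library was close to the controls and the other 2 were near zero. Summed, the pair had a log2 fold change of -0.32 ± 0.24 (SE) by edgeR, against -0.04 for *Pcna* alone. The copies *Ccnb1-ps*, *Ccnd3-ps*, *Tyms-ps* and *Ccnb2-ps* each took at most 0.731% of the counts of their pair in any library.

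**Figure D4:**
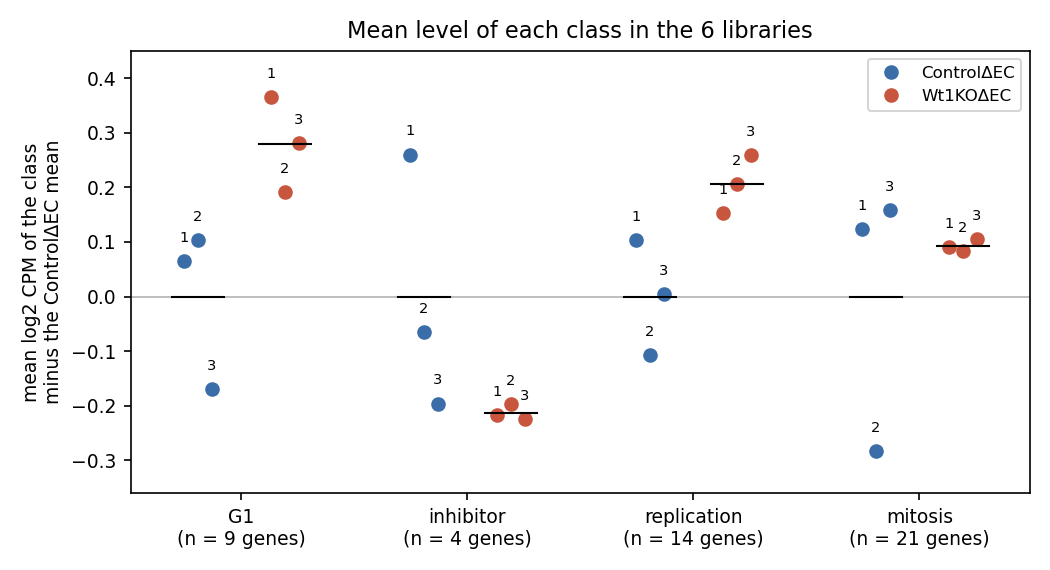
Mean log2 CPM over the genes of each class in each library, as the difference from the ControlΔEC mean, with replicate numbers above the points and lines for the genotype means. The Wt1KOΔEC libraries lie above all controls for the G1 and replication genes, and ControlΔEC replicate 2 lies lowest for the mitosis genes, at -0.28. For the replication genes the margin is narrow, with the highest control at 0.103 and the lowest Wt1KOΔEC library at 0.153. Their summed CPM overlapped, at 1449 to 1826 in ControlΔEC and 1752 to 1935 in Wt1KOΔEC.

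For the mitosis genes, the ControlΔEC libraries spread more widely than the Wt1KOΔEC libraries. The class mean lay at 0.12, -0.28 and 0.16 on the log2 scale in ControlΔEC, relative to their own mean, and at 0.09, 0.08 and 0.11 in Wt1KOΔEC. The median SD of log2 CPM between replicates was 0.313 in ControlΔEC and 0.0968 in Wt1KOΔEC over the 21 mitosis genes, beside 0.485 and 0.333 over all genes tested. ControlΔEC replicate 2 was the lowest of the 6 libraries in, for example, *Kif11*, a spindle motor, at 23.1 CPM beside 51.8 to 84.9 CPM in the other 5, and *Top2a*, a topoisomerase that untangles chromosomes, at 151 CPM beside 204 to 290 CPM. The same library held the highest summed level of 8 macrophage markers, at 826 CPM beside 198 to 426 CPM in the other 5. It also held the highest sum of erythroid markers (14350 CPM). Its sums were the lowest for fibroblast (679 CPM), endocardial (214 CPM) and epicardial (11.7 CPM) markers, and for immediate early and heat shock genes (2131 CPM). The part of these lists in the low mitosis genes was not tested.

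The kinases of mitotic entry and the spindle pole were among the mitosis genes with the larger positive differences. *Plk1*, the Polo-like kinase, had 63.0, 31.0 and 43.3 CPM in ControlΔEC and 71.1, 80.6 and 61.8 CPM in Wt1KOΔEC, with a log2 fold change of 0.64 ± 0.26 (SE) and an adjusted p = 0.341 by edgeR. Its libraries overlapped, since ControlΔEC replicate 1 was above Wt1KOΔEC replicate 3. *Aurka*, the Aurora kinase of the spindle pole, had 46.9, 34.3 and 41.7 CPM in ControlΔEC and 56.5, 54.9 and 53.2 CPM in Wt1KOΔEC, with a log2 fold change of 0.42 ± 0.18 (SE) and an adjusted p = 0.368 by edgeR. *Tpx2*, which activates Aurora A on spindle microtubules, had 94.1, 62.1 and 105 CPM in ControlΔEC and 128, 122 and 120 CPM in Wt1KOΔEC, with a log2 fold change of 0.50 ± 0.20 (SE) and an adjusted p = 0.346 by edgeR. *Aurka* and its activator *Tpx2* were both without overlap, whereas *Aurkb* and *Birc5*, partners in the chromosomal passenger complex, overlapped, with means of 63.6 and 86.0 CPM in ControlΔEC and 66.4 and 97.6 CPM in Wt1KOΔEC. *Aurka* shares 25.2% of its exonic length with *Fam210b* on the opposite strand.

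Mitotic exit is represented by *Ube2c* and *Cdc20*. *Ube2c*, the ubiquitin-conjugating enzyme of the anaphase-promoting complex, had 114, 83.8 and 89.8 CPM in ControlΔEC and 141, 114 and 132 CPM in Wt1KOΔEC. The highest control (113.9 CPM) and the lowest Wt1KOΔEC library (114.1 CPM) nearly touched, and the log2 fold change was 0.43 ± 0.17 (SE) with an adjusted p = 0.341 by edgeR. *Cdc20*, an activator of the same complex, had 114, 107 and 103 CPM in ControlΔEC and 134, 120 and 155 CPM in Wt1KOΔEC, without overlap and with an adjusted p = 0.414 by edgeR.

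*Mki67*, which encodes the proliferation marker Ki-67, was lower in Wt1KOΔEC. It was measured at 144, 131 and 165 CPM in ControlΔEC and at 113, 110 and 115 CPM in Wt1KOΔEC. The libraries did not overlap, and the log2 fold change was -0.39 ± 0.15 (SE) with an adjusted p = 0.328 by edgeR. *Tpx2* and *Mki67* thus differed in opposite directions, with 0.588 ± 0.1 (SD, n = 3) counts of *Tpx2* per count of *Mki67* in ControlΔEC and 1.09 ± 0.0473 (SD, n = 3) in Wt1KOΔEC. This ratio was chosen after both differences were seen and restates them. *Top2a* per *Mki67* was 1.56 ± 0.361 and 1.87 ± 0.0308 (SD, n = 3 each).

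The cyclins of mitosis itself differed little, while their kinase was somewhat higher in Wt1KOΔEC. *Ccna2*, *Ccnb1* and *Ccnb2* had means of 154, 96.4 and 93.3 CPM in ControlΔEC and 151, 92.4 and 93.4 CPM in Wt1KOΔEC, and for *Ccnb2* the 95% confidence interval of the log2 fold change was -0.41 to 0.41. *Cdk1*, their kinase, had 163, 134 and 159 CPM in ControlΔEC and 179, 173 and 182 CPM in Wt1KOΔEC, without overlap. Its log2 fold change was 0.23, with an unadjusted p = 0.157 by edgeR. *Foxm1*, the transcription factor of G2/M genes, had means of 32.0 and 27.0 CPM and overlapped. *Ccna2* shares 17.5% of its exonic length with *Exosc9* on the opposite strand.

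The checkpoint and kinetochore genes and the motors lay on both sides of zero. *Bub1*, *Bub1b* and *Mad2l1*, which hold anaphase back until chromosomes are attached, had log2 fold changes of -0.02, 0.20 and -0.18. The kinetochore genes *Cenpe* and *Cenpf* had -0.17 and -0.45, the latter at 25.8, 36.7 and 40.8 CPM in ControlΔEC and 23.3, 26.5 and 25.8 CPM in Wt1KOΔEC. The motors *Kif11* and *Kif23* had 0.30 and -0.21. All 7 overlapped between genotypes.

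A two-sided exact permutation test over the 6 libraries gave p = 0.1 for 10 of the 12 members described with full statistics. This is the smallest p that 3 against 3 libraries allow. The two-sided exact permutation test gave p = 0.2 for *Plk1* and p = 0.3 for *Cdkn2c*. These 12 members were chosen by their edgeR p or fold change in the same libraries. The smallest p was thus likely beforehand, and the permutation test adds no independent evidence.

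Among the mitosis genes, those of greater exonic length tended to have the lower fold changes. This length is the union of all annotated isoforms and not that of the expressed transcript. Spearman's rho of the log2 fold change with exonic length was -0.671 across the 21 mitosis genes, -0.0333 across the 9 G1 genes, -0.0418 across the 14 replication genes and -0.8 across the 4 inhibitors. It was -0.410 across all 48 members, beside -0.105 across 16238 genes tested. With GC content it was 0.505 across the mitosis genes, 0.397 across all members and 0.121 across the genes tested. *Cenpf* and *Mki67* (10.3 kb) are the longest of the mitosis genes and had the lowest fold changes among them, while *Plk1* (2.86 kb) had the highest. *Ccnd2*, at 9.41 kb, is an exception among the members that were higher. All points of such a correlation come from the same 6 libraries, and long genes are also poorer in GC, so the properties were not separated. With offsets for length and GC content in the fit, 4 members were higher and 2 lower at an unadjusted p under 0.05.

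**Figure D5:**
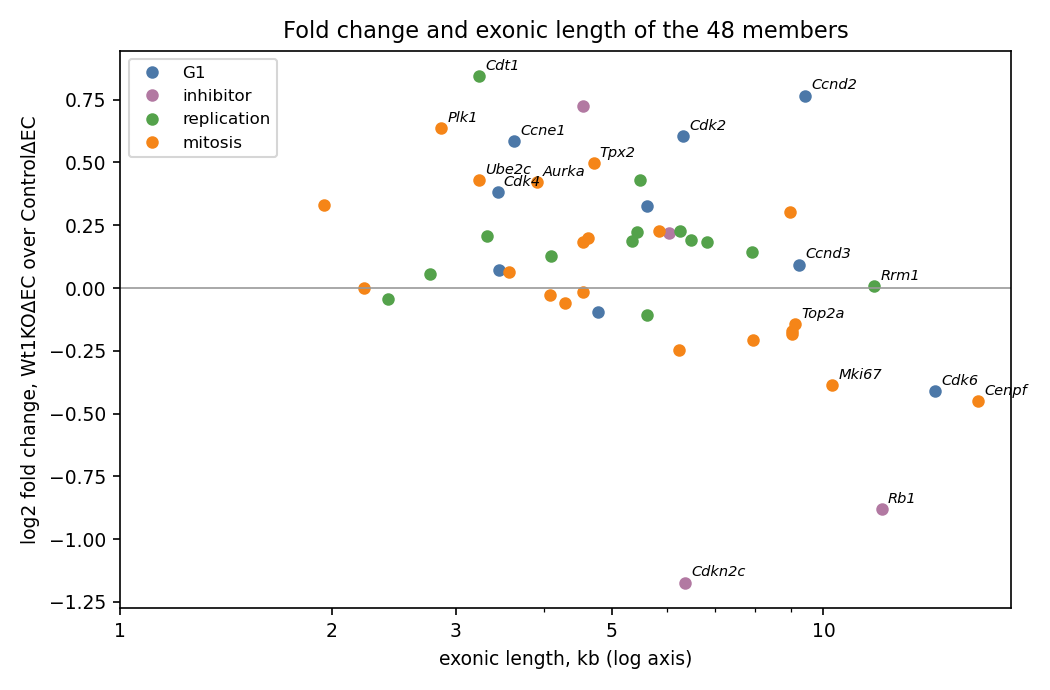
Log2 fold change in Wt1KOΔEC over ControlΔEC of each of the 48 members against its exonic length in kb on a log axis, coloured by class. Among the mitosis genes the points fall from *Plk1* at 2.86 kb and 0.64 to *Cenpf* at the right and -0.45, with rho = -0.671 over 21 genes.

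Of 127 further cell cycle genes listed by role, 126 were tested, 3 were higher and 9 lower at an unadjusted p under 0.05, and none was a DEG by edgeR. Of all genes tested, 5.96% were higher and 7.12% lower at that p. Their median log2 fold change was 0.03. DESeq2 called *Nek2* higher and *Aspm* lower. The genes with the smallest p were again divided in direction. *Nek2*, a centrosomal kinase, had 11.2, 7.85 and 18.4 CPM in ControlΔEC and 29.5, 29.0 and 31.5 CPM in Wt1KOΔEC, with a log2 fold change of 1.27 ± 0.32 (SE) and an adjusted p = 0.198 by edgeR. *Zwint*, of the kinetochore, and *Fen1*, the flap endonuclease of lagging strands, were the others that were higher, both with a log2 fold change of 0.42. *Aspm*, a spindle pole protein, had 24.4, 28.6 and 17.4 CPM in ControlΔEC and 12.8, 10.8 and 12.8 CPM in Wt1KOΔEC, with a log2 fold change of -0.95 ± 0.27 (SE) and an adjusted p = 0.219 by edgeR. *Usp1* (-0.84), a deubiquitinase of PCNA, *Ccng2* (-1.04), a cyclin of arrested cells, and *Kif4* (-0.56), a chromosome motor, followed.

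By role, none of 16 further G1 genes was higher and 2 were lower at that p, with a median log2 fold change of 0.11, beside 4 higher and none lower of the 9 G1 members. Of 11 further inhibitors tested, none was higher and 2 were lower, with a median of -0.48. Of 43 further replication genes 1 was higher and 2 were lower, with a median of 0.12. Of 56 further mitosis genes 2 were higher and 3 were lower, with a median of -0.03, beside 4 higher and 1 lower of the 21 mitosis members. The difference between members and further genes was not tested. Spearman's rho with exonic length was -0.187 across the 56 further mitosis genes, beside -0.671 across the 21 members.

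Markers of the sorted cell type overlapped between genotypes in their sum. The summed level of 11 endothelial markers was 6498 to 7898 CPM in ControlΔEC and 6448 to 7424 CPM in Wt1KOΔEC, and none was at 0 in any library. Of the 11, *Kdr* was lower and *Emcn* higher in Wt1KOΔEC without overlap, and only *Emcn* had an unadjusted p under 0.05. Several lists used here as markers of other cells differed between genotypes, but some of their genes are read as endothelial in the paper. It counts *Col1a1*, *Col3a1* and *Dcn* as venous markers that were overexpressed, although it also names *Col1a1* among fibroblast genes. *Rgs5* and *Kcnj8*, in the mural list here, are arterial genes there, the former downregulated. The sum of 8 fibroblast markers was 679 to 983 CPM in ControlΔEC and 1347 to 1554 CPM in Wt1KOΔEC, with 5 of 8 higher at an unadjusted p under 0.05, among them *Col1a1*, *Col3a1* and *Pdgfra*, while *Tcf21* was at 0 in ControlΔEC replicate 2. Immediate early and heat shock genes, known to respond to tissue dissociation, summed to 2131 to 2684 and 3213 to 4196 CPM, with 7 of 10 higher at that p. Macrophage markers summed to 273 to 826 and 198 to 293 CPM, with 5 of 8 lower, and mural cell markers to 179 to 369 and 144 to 163 CPM, with 3 of 7 lower. Epicardial markers summed to 11.7 to 18.04 and 17.5 to 49.7 CPM, with 2 of 7 higher, and endocardial markers to 214 to 323 and 292 to 398 CPM, with 3 of 5 higher, and both sums overlapped. Cardiomyocyte markers (108 to 157 and 82.6 to 195 CPM, with none past that p) and erythroid markers (6571 to 14350 and 5112 to 8500 CPM, 1 higher and 2 lower of 9) overlapped in their sums as well. The part of these cells and of dissociation in the differences of the cyclins and kinases was not tested. The library identifiers form a separate run for each genotype, so a preparation batch, which no source used here names, and the genotype cannot be told apart.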

How the data were processed

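mGFP-sorted ECs of ControlΔEC and Wt1KOΔEC hearts were sequenced after SMART-seq2 and Nextera XT preparation, with 3 libraries each. The deposited values are RSEM expected counts per gene, which the authors gave as whole numbers without normalization. They used STAR 2.7.8a and RSEM 1.3.0 per the processing notes. The notes name GRCm38 and the paper's methods GRCm39, so positions printed here come from RefSeq windows on GRCm38.p6 only. GENCODE vM39 (GRCm39) gave exonic lengths (union of all annotated isoforms), overlaps and GC content by gene ID.

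Genotype and replicate came from the sample titles. The tools were edgeR 4.0.16, limma 3.58.1 and DESeq2 1.42.0 under R 4.3.3. A gene entered the fit when 2 or more libraries held 10 or more of its counts. Scaling was by TMM, the test was the quasi-likelihood F test of edgeR, and p-values were adjusted by Benjamini and Hochberg's method across every gene in the fit. The SE was computed as the size of the log2 fold change divided by the root of its F statistic. DESeq2 ran with its defaults on the whole table. Alternatives were limma-voom, DESeq2, other scalings and filters, the replicate number as a block, length and GC offsets (natural splines with 5 degrees of freedom), removal of *Rn18s* and mitochondrial genes, and each library left out. A fit with pseudogene copies summed into their members was chosen after seeing the data. The fits were tested on simulated data.

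The members, classes, gene lists and tests were chosen with earlier results of these data known. Full statistics were given to members with an unadjusted p under 0.05 and to the largest difference in each class, and of the further lists up to 4 genes in each direction were named. *Pcna-ps2*, the levels of *Cdkn1c* and the adjusted p-values of *Cdkn1b* and *Cdc20* were chosen after their values were seen, as were the within-library ratios. A count of 0 allows up to 3 counts, or at most 0.119 CPM, and covers counting error only. The p-values measure the spread between libraries labelled as biological replicates.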

Additional observations from a re-analysis of the deposited data

How the results depend on the processing

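Across 18 alternatives each, the 12 members given with full statistics kept their direction, and *Wt1* kept its direction and its call. The 12 were chosen for a small p or a large difference in the same libraries, so a kept direction was likely. Over all members, 8 changed direction with library size only. With a library left out, 2 (without Wt1KOΔEC replicate 1) to 7 (without ControlΔEC replicate 3) did. None did with the replicate block alone or without a filter on low counts. The count of members called DEGs was 0 except with DESeq2 (3) and without a filter on low counts (2, *Ccnd2* and *Cdt1*), and removing the fold change limit left it at 0. The count of members higher at an unadjusted p under 0.05 was 9 and became 3 with library size only, 4 with length and GC offsets, 4 with the replicate block and these offsets, and 3 to 8 with a library left out. The count of lower members was 2 and became 4 with library size only, 1 with the block and offsets, and 1 to 3 with a library left out. With library size only, the median log2 fold change was 0.20 for the G1 genes and 0.0434 for the replication genes. The median of all genes was then lower too, at -0.18 against -0.03. The G1 median was 0.0706 to 0.413 with a library left out. *Pcna* was at 0.0154 with length and GC offsets, 0.0698 with these and the replicate block and between -0.258 and 0.215 with a library left out (above zero without ControlΔEC replicate 1 or Wt1KOΔEC replicate 2), against -0.04. The cause of these changes was not tested. Replicate numbers did not pair the libraries, since deviations of same-numbered libraries correlated at 0.0666, 0.00376 and 0.0450 and not every library correlated best with its own number. The replicate block gave 8 members higher and 2 lower and no member DEG, *Wt1* kept its call, and over all genes the DEGs were 5 in place of 12. With 3 libraries per genotype, genes below about 10 CPM such as *Cdkn2c*, *Cdkn1b* and *E2f1* had SEs of 0.39 to 0.75 on the log2 scale, which limits what can be said of them.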
